A study of Mus musculus with 4 samples.

Results

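The genotype-by-diet difference asks, for each gene of the liver, how far the ratio of HSL-null to wild type on a high-fat diet departs from the same ratio on a normal diet. It was computed on 4 of the 4 arrays of the study as log2 HSL-null over wild type on the high-fat diet (FD) minus the same on the normal diet (ND), so a value of 1 is a 2-fold difference between the 2 ratios. The same number is the log2 FD to ND ratio in HSL-null liver minus that in wild-type liver. Of 12422 probe sets that are not controls, 10833 were annotated to 1 gene, for 8251 genes in all, and 4829 of these genes were bright enough to be described. A further 3422 genes had no probe set with a mean signal of at least 26.9, the filter used here, and entered only the counts given for all probe sets.

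The 4 groups were livers of female mice killed in the fed state at 8 months of age, of wild-type genotype or HSL-null. Fat gave 11% of the energy of ND and 58% of that of FD, and the diets lasted 6 months. HSL-null mice lack hormone-sensitive lipase, the product of Lipe. The strain and the way the gene was disrupted are details that the sources used here do not hold. RNA of 6 livers was pooled in both wild-type groups and in HSL-null ND, and of 4 livers in HSL-null FD. Each pool went to 1 array, so no value has a replicate and nothing was tested, and the words higher and lower speak of 4 pools. The difference rests on all 4 arrays and carries the error of each.

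Hormone-sensitive lipase hydrolyses stored acylglycerols and, in several tissues, cholesteryl esters. Hepatocytes adjust cholesterol synthesis through SREBP-2, a membrane-bound transcription factor that is released when sterols in the endoplasmic reticulum are low and then activates nearly every enzyme of the pathway. Liver also holds macrophages, lymphocytes, stellate cells and endothelium, whose RNA is mixed into a pool of whole tissue, and in such pools fewer cells of a type and less RNA per cell cannot be told apart.

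The arrays measured liver. The hepatocyte genes Alb, Ttr, Apoa1, Cps1, Tat and Hnf4a were well above the filter on every array, from Alb, at 4680 to 6913, to Hnf4a, at 247.3 to 337.7. Lipe had signals of 28.0, 34.0, 11.9 and 15.9 in wild type ND, wild type FD, HSL-null ND and HSL-null FD, a genotype-by-diet difference of 0.14. Signals given in a row of 4 below follow this order. Lipe was thus lower in both HSL-null pools by a like ratio, but its mean lay under the filter, and it is not known here whether its probes lie in the disrupted part. Each genotype had its own lot of solutions, and in a genotype ratio the lot and the genotype cannot be told apart. A lot was shared by the 2 diets of a genotype, and each array had a fluidics module of its own. Control probe sets differed too, and their part in the results was not tested. The 12 poly-A spike probe sets, added before labelling in the standard protocol, had a mean genotype-by-diet difference of -0.86 (range -1.28 to -0.27), with geometric means of 1412, 2179, 1781 and 1510 in wild type ND, wild type FD, HSL-null ND and HSL-null FD. The 9 hybridisation spike probe sets had 0.32 (0.071 to 0.58). The 3 probe sets of 18S had -0.36, made mostly by the 5' one (-0.98), with -0.050 and -0.066 at the others. The 3' to 5' ratio of Gapdh, a sign of RNA integrity, ran from 0.838 to 0.867 over the 4 arrays. That of b-actin was 1.44, 1.49, 1.41 and 1.32 in the same order of arrays, highest on wild type FD and lowest on HSL-null FD.

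Across the 4829 genes the genotype-by-diet difference had a median of 0.092 and an SD of 0.55, and 58.3% of the genes lay above 0. The ratio was 2-fold or more higher on FD than on ND for 238 genes (4.93%) and 2-fold or more lower for 67 (1.39%), so that 78.0% of the 305 genes lay on the higher side. That split depends on how arrays were scaled. It was 56.0% under quantile normalization and 59.1% under cyclic loess, and under median scaling, which moved the median of all genes from 0.092 to -0.21, it was 35.1%. Directions below are therefore given for gene groups whose median kept its sign under all 3 scalings, unless the sentence says otherwise. Counts of list members under a scaling have their own base. Over all genes, quantile normalization gave 149 higher and 117 lower, median scaling 114 and 211, and cyclic loess 156 and 108. At 4-fold, 29 genes (0.601%) were higher and 8 (0.166%) lower. The only estimate of error came from 687 genes read by another kept probe set, whose disagreement gave the difference an SD of 0.43, leaving out error that probe sets of an array share. Over all 10833 probe sets with 1 gene, dim ones included, 857 (7.91%) were higher and 321 (2.96%) lower.

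The 2 genotype ratios share no array. Between genotypes on ND, 24 genes (0.497%) were higher by 2-fold in HSL-null liver and 52 (1.08%) lower, and on FD 90 (1.86%) and 46 (0.953%). Between diets, 38 genes (0.787%) were higher on FD in wild type and 114 (2.36%) lower, against 40 (0.828%) and 30 (0.621%) in HSL-null liver. A ratio below 0 on ND and above 0 on FD was seen in 211 of the 238. Over all genes the ratios had SDs of 0.34 on ND and 0.45 on FD. Choosing genes by a 2-fold gap between such ratios favours opposite signs, for the 67 lower genes too. The share with opposite signs over all genes was not computed. Of the 238, 132 were 2-fold different between genotypes on neither diet, 68 only on FD, 29 only on ND and 9 on both. Of the 67, 55 had a ratio above 0 on ND and below 0 on FD, 30 were 2-fold on neither diet, 26 only on FD, 8 only on ND and 3 on both. Across genes, which are not independent replicates, the ratio on ND and that on FD had a Pearson correlation of 0.032.

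**Figure D1:**
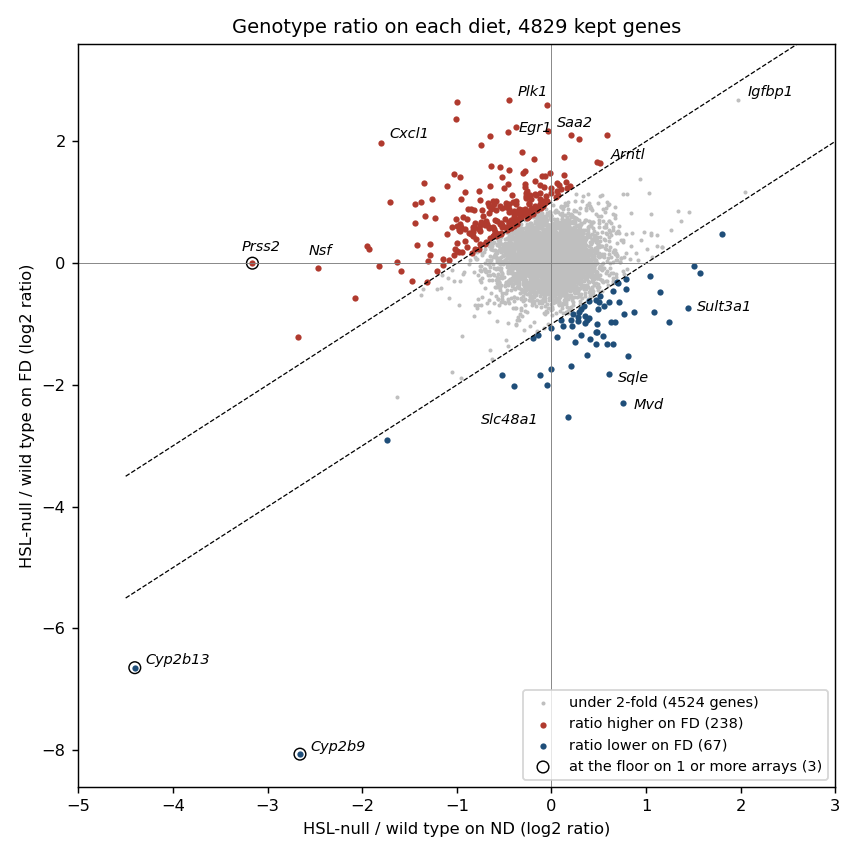
HSL-null over wild type on ND (log2, x axis) against that on FD (y axis) for 4829 genes, 1 point a gene, with dashed lines where the 2 ratios differ 2-fold. The 238 red genes lie above the upper line, most of them left of and above zero, and the 67 blue genes below the lower line; Igfbp1, far from zero on both diets, lies between the lines, and the 3 circled genes were at the floor on 1 or more arrays.

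Signal level went with the direction. Over 5 equal bins by mean signal, the 966 dimmest genes, at up to 46.1, had a median difference of 0.25, with 12.9% higher and 1.76% lower. The 966 brightest, above 305.6, had -0.068, with 1.04% higher and 1.55% lower. The 238 higher genes had a median signal of 44.5 and the 67 lower genes 101, against 103 for all. A difference above 0 fixes the side on which each array can lie farthest from the mean of the other 3. Wild type FD, on the low side, was farthest for 134 of the 238 (56.3%), against 1116 of the 2813 genes above 0. For 95 of these 134, the other 3 arrays lay within 1.5-fold of each other. Wild type ND stood high for 55 of the 238, HSL-null ND low for 28 and HSL-null FD high for 21. Of the 2813 genes above 0 these were 641, 449 and 607. Of the 67 lower genes, wild type FD stood high for 27 (40.3%) and HSL-null FD low for 25 (37.3%). Over all 4829 genes, those above 0 included, these shares were 14.3% and 9.61%. The higher genes thus went mostly with low signals on the wild-type FD array, which was also the commonest case among all genes above 0. The lower genes went with high signals there and with low signals on the HSL-null FD array, the latter being rarer over all genes.

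**Figure D2:**
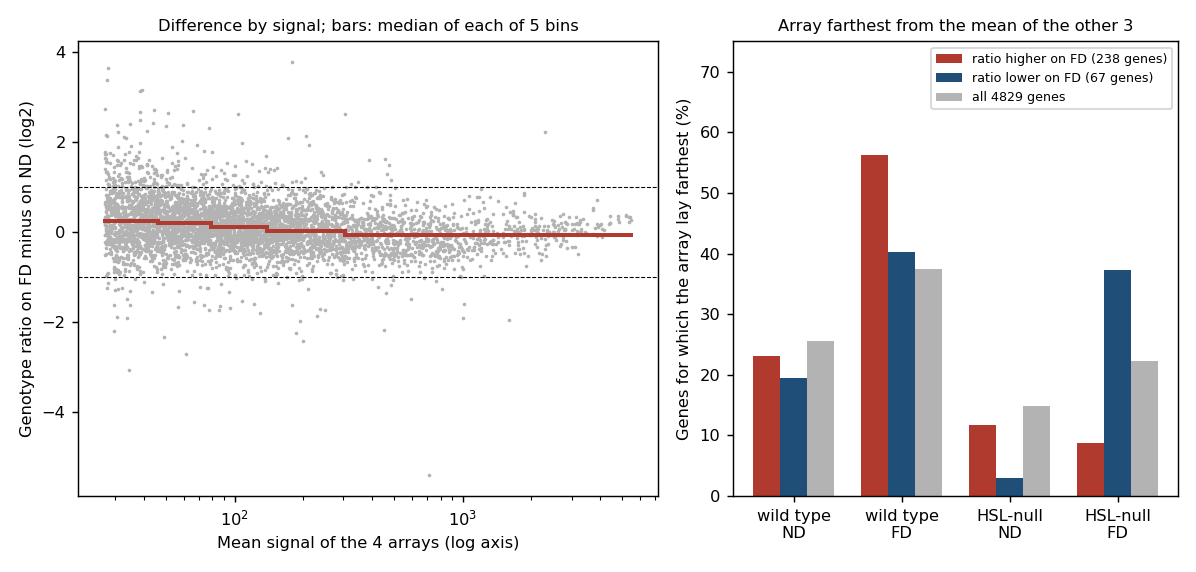
Left, the genotype-by-diet difference (log2, y axis) of 4829 genes against the mean signal of the 4 arrays (log axis), with the median of each of 5 bins as a bar, from 0.25 in the dimmest to -0.068 in the brightest. Right, the percentage of genes for which each array lay farthest from the mean of the other 3, with wild type FD at 56.3% for the 238 higher genes.

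Genes of cholesterol synthesis made up the largest block of lower genes. Of the 17 measured members, 12 (70.6%, against 1.39% of all genes) had a genotype ratio 2-fold or more lower on FD than on ND, none was higher by 2-fold, and the median was -1.72. Wild-type and HSL-null liver went opposite ways with the diet, as 16 of 17 were higher on FD than on ND in wild type, with a median log2 ratio of 0.56, and 16 of 17 lower in HSL-null liver, with a median of -0.93. In wild type their signals summed to 3800 on ND and 5358 on FD, and in HSL-null liver to 4660 and 2511. HSL-null liver thus had the higher sum of the genotypes on ND and the lower on FD. The median lay between -2.01 and -1.41 over the alternatives.

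The pathway starts with steps that build isoprenoid units. Hmgcs1, which makes HMG-CoA, had signals of 266.9 and 452.2 in wild type on ND and FD and of 463.2 and 421.7 in HSL-null liver, a difference of -0.90, with wild type ND low and the other 3 arrays close together. Mvk, mevalonate kinase, had 61.7, 67.3, 57.5 and 59.4 in wild type ND, wild type FD, HSL-null ND and HSL-null FD, a difference of -0.08, though another probe set, with a mean of 26.8 just under the filter, had -2.75. The 2 probe sets of Mvk thus disagree. Mvd, mevalonate diphosphate decarboxylase, had 25.2 and 58.1 in wild-type liver and 42.5 and 11.8 in HSL-null liver, a difference of -3.05 or 8.3-fold. It was the largest difference of the list and the largest on the lower side among genes above the floor, with HSL-null FD lowest. Idi1, isopentenyl diphosphate isomerase, had 249.0 and 366.9 in wild-type liver and 228.2 and 102.4 in HSL-null liver, a difference of -1.72. Fdps, farnesyl diphosphate synthase, had 1133 and 1211 in wild-type liver and 1312 and 375.2 in HSL-null liver. Its difference was -1.90, another probe set gave -2.003, and HSL-null FD stood alone, the other 3 arrays lying within 1.5-fold.

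The later steps make squalene and turn it into cholesterol. Fdft1, squalene synthase, had 269.4 and 441.3 in wild-type liver and 268.7 and 211.0 in HSL-null liver, a difference of -1.06. Sqle, squalene epoxidase, had 186.3 and 258.4 in wild-type liver and 283.2 and 72.9 in HSL-null liver, a difference of -2.43 or 5.39-fold. HSL-null liver was higher than wild type on ND and lower on FD for Sqle, and the same held for Lss, lanosterol synthase, which had 74.7, 92.2, 90.9 and 47.7 on the 4 arrays in the same order and a difference of -1.23. Cyp51, lanosterol demethylase, had 32.0 and 80.5 in wild-type liver and 55.9 and 28.1 in HSL-null liver, a difference of -2.32. Msmo1, which removes methyl groups from the sterol ring, had 117.8 and 335.7 in wild-type liver and 184.9 and 133.1 in HSL-null liver, a difference of -1.99. For both Cyp51 and Msmo1 the array that stood apart was wild type FD, on the high side. Nsdhl, at the same stage, had 198.5, 343.1, 257.2 and 121.2, a difference of -1.87, with -2.19 and -0.81 at its other probe sets. Tm7sf2, a sterol reductase, had -1.74, with -1.09 at another probe set. Dhcr7, the last enzyme of one branch, had 77.3, 104.6, 112.7 and 45.7 and also -1.74, and Ebp, a sterol isomerase, had 402.8, 676.6, 490.6 and 365.9 and -1.17. Sc5d (-0.71, with -0.78 at another probe set), Hsd17b7 (-0.65) and Lbr, which also anchors chromatin at the nuclear envelope (0.11), did not reach 2-fold. Lbr was the 1 member of 17 above 0.

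**Figure D3:**
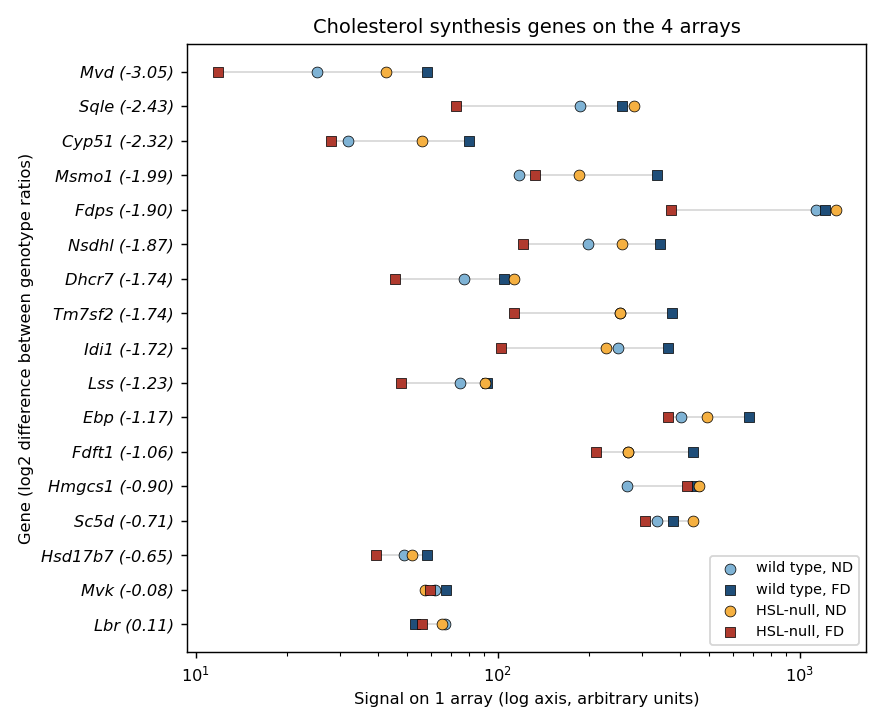
Signals (log axis, arbitrary units) of the 17 cholesterol synthesis genes on the 4 arrays, 1 row a gene and 1 symbol an array, ordered by the genotype-by-diet difference given in brackets. For most genes the HSL-null FD array (red squares) is lowest and the wild-type FD array (dark blue squares) highest or next to it; Mvk and Lbr at the bottom hold all 4 arrays close together.

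Promoters are shown for 4 members and not for others with large differences, such as Sqle (-2.43) and Fdps (-1.90). The 4 had differences of -3.05 (Mvd), -2.32 (Cyp51), -1.99 (Msmo1) and -1.72 (Idi1) and lie at separate steps of 1 pathway. Each runs 5′ to 3′ along the gene's strand over 300 bases, of which 250 come before the start of the gene and 50 after it, from RefSeq on GRCm38.p6. Capitals mark the letters CCAAT on either strand (read as ATTGG on the other), the core of sites of NF-Y, a factor known to act beside SREBP. Mvd lies at chr8:122443373-122443672 on the minus strand, Cyp51 at chr5:4104648-4104947 on the minus strand, Msmo1 at chr8:64733529-64733828 on the minus strand and Idi1 at chr13:8885356-8885655 on the plus strand.
Mvd: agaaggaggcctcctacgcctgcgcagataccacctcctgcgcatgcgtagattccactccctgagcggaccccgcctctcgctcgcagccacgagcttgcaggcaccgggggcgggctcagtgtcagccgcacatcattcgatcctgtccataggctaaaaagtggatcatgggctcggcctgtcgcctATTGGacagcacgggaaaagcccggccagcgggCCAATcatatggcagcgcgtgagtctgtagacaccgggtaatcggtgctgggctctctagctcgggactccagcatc
Cyp51: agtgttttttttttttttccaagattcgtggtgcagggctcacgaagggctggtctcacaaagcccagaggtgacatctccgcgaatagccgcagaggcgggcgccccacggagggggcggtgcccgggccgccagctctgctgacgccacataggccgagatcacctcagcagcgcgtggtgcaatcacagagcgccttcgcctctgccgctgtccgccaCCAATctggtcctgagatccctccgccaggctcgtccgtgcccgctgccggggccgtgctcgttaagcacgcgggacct
Msmo1: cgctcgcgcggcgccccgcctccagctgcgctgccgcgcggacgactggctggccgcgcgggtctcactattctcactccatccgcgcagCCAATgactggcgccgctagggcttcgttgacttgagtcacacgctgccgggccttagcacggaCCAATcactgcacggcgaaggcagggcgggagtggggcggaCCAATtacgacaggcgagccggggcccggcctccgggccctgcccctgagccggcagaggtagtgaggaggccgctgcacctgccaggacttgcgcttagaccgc
Idi1: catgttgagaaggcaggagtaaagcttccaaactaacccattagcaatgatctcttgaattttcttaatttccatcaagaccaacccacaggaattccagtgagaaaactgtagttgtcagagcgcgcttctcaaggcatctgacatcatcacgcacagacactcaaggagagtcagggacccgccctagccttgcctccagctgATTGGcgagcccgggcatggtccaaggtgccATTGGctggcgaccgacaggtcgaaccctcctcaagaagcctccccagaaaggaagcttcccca
Of the 17 measured genes, 14 were in the promoter table. Of these 14, 13 (92.9%) held CCAAT on either strand, against 10248 of the promoters of all 27025 genes (37.9%). The 13 included Hmgcs1, Hsd17b7, Lbr, Mvk and Sc5d, which did not reach 2-fold at their brightest probe sets. The letters TCACNCCAC, a core of the sterol regulatory element, were in 1 of the 14, that of Hmgcs1, and in 1.22% of all. A match describes the letters of this window and is no evidence of binding in these livers.

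Other genes of sterol handling did not form a block. Of 18 genes listed for sterol uptake and SREBP regulation, 5 were measured, with 1 higher by 2-fold and a median of 0.11, which turned negative under median scaling. The 1 gene was Abca1, the cholesterol efflux pump, with 366.1 and 240.9 in wild-type liver and 324.0 and 463.1 in HSL-null liver and a difference of 1.12. It ran opposite to the synthesis genes, lower on FD in wild type and higher on FD in HSL-null liver. Abcg1, another sterol exporter, had 0.68. Srebf1, the gene of SREBP-1, had 690.6 and 737.3 in wild-type liver and 601.7 and 878.3 in HSL-null liver, a difference of 0.45. Insig1, which retains SREBP in the endoplasmic reticulum, was at the floor on all 4 arrays and gave no value.

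Genes of fatty acid and triglyceride synthesis leaned the same way as cholesterol synthesis, by less. Of 18 measured members, 3 (16.7%, against 1.39% of all genes) were 2-fold lower, 1 was higher and 13 were below 0. The median was -0.47. Acly, which makes cytosolic acetyl-CoA, had 798.6 and 699.9 in wild-type liver and 1105 and 459.4 in HSL-null liver, a difference of -1.08. Me1, malic enzyme, which supplies NADPH, had 454.1 and 430.9 in wild-type liver and 580.0 and 236.4 in HSL-null liver, a difference of -1.22. In both genes HSL-null liver was the highest pool on ND and the lowest on FD, while wild type differed little between diets. Pgd, another source of NADPH, had 80.8, 139.1, 139.7 and 116.0 and -1.05, with wild type ND low. Fasn, fatty acid synthase, had 718.6, 468.3, 722.8 and 306.6 and a difference of -0.62, lower on FD in both genotypes. Scd1, the main stearoyl-CoA desaturase of liver, had 5918 and 3592 in wild-type liver and 4426 and 2775 in HSL-null liver, and its difference was 0.05. Scd2, a related desaturase of other tissues, was the 1 member higher by 2-fold, at 1.06, with 0.69 at another probe set, and kept this under 1 of 8 alternatives. Of the 18, 5 were lower by 2-fold under median scaling and 2 under cyclic loess and with a pseudocount. Over all genes these counts were 211 of 4827, 108 of 4829 and 44 of 4829.

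The median of the female-biased genes of liver was -1.27 over 7 measured members. Of these, 4 of 7 (57.1%, against 1.39% of all genes) counted as 2-fold lower, and 1 of the 4 was not measured in HSL-null liver. Cyp2b9, a steroid and drug hydroxylase of female liver, had 1046 and 1632 in wild-type liver and 165.7 and 2.1 in HSL-null liver. The last signal lay under the floor of 6.1, so the genotype ratio was at least 42.4-fold lower on FD than on ND. Cyp2b13, its neighbour in the same gene cluster, had 129.1 and 610.0 in wild type. Both HSL-null signals, 3.2 and 1.3, were under the floor, so its genotype-by-diet difference has no value although it counts among the 67. Cyp2b9 and Cyp2b13 lie on chromosome 7, in the Cyp2b cluster beside the disrupted gene Lipe. Whether that position bears on their signals was not tested. Sult3a1, a sulfotransferase, had 155.8 and 771.5 in wild-type liver and 424.1 and 464.8 in HSL-null liver, a difference of -2.18. Wild type thus spanned 4.95-fold between diets and HSL-null liver 1.1-fold, with HSL-null higher on ND and lower on FD. Cyp17a1, a steroid 17-hydroxylase, had 950.3, 911.5, 986.6 and 393.0 and a difference of -1.27, with HSL-null FD alone low. The 8 measured male-biased genes had a median of 0.12, which turned negative under median scaling. None of them reached 2-fold, against 4.93% of all genes higher and 1.39% lower.

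Xenobiotic metabolism genes were lower as a group by less than 2-fold, with 30 of 41 below 0 and a median of -0.18. Of the 41, 3 (7.32%, against 1.39% of all genes) were lower by 2-fold. Under median scaling 8 were, against 211 of all 4827 genes. Cyp2c39, a cytochrome P450, had 1971, 1985 and 1912 on the first 3 arrays (wild type ND, wild type FD and HSL-null ND) and 494.3 in HSL-null FD, a difference of -1.96. No other of the 15 lowest genes had 3 arrays so close together with 1 apart. Gsta4, a glutathione transferase that clears lipid peroxidation products, had 75.9 and 242.5 in wild-type liver and 104.9 and 96.3 in HSL-null liver, a difference of -1.80. Gstm6 had 92.8, 162.0, 110.0 and 66.0 and -1.54, with -0.70 at another probe set. For these 2 transferases wild type FD stood high.

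Genes of mitochondrial respiration showed small differences, most of them below 0. Of 62 measured oxidative phosphorylation genes, 48 were below 0 and 14 above, with a median of -0.27, whereas 58.3% of all genes lay above 0. Of the 62, 3 (4.84%, against 1.39% of all genes) were lower by 2-fold. Cox6b2, a cytochrome oxidase subunit gene, was the 1 higher (41.2, 35.9, 16.9 and 39.3, 1.42). Its other probe sets, under the filter, had -0.01 (mean 24.6) and 1.62 (mean 7.6, with 2 arrays at the floor). Cox6b2 came under 2-fold with the floor at the median and with a pseudocount. The 3 lower genes were subunits of complex I. Ndufa13 had 446.3 and 869.9 in wild-type liver and 622.6 and 435.4 in HSL-null liver (-1.48), Ndufa2 418.7, 648.7, 518.7 and 384.4 (-1.06) and Ndufb8 533.4, 895.7, 700.4 and 581.5 (-1.02). In each of these genes wild type FD was the highest array. Ndufa2 and Ndufb8 came under 2-fold with quantile normalization and with cyclic loess. Among 57 mitochondrial ribosomal protein genes, a list drawn up after values were seen, 42 were below 0, with a median of -0.23. Of the 57, Mrps10 (-1.68) and Mrps25 (-1.22) were lower by 2-fold (3.51%, against 1.39% of all genes). Under median scaling 5 genes of each list were lower by 2-fold, against 211 of all 4827. Under quantile normalization and cyclic loess 4 mitochondrial ribosomal genes were, against 117 of 4825 and 108 of 4829. The median signal was 814 for oxidative phosphorylation, in the brightest bin, where the median of all genes was -0.068, and 141 for the mitochondrial ribosomal genes, in the bin next to it, where it was 0.035.

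The largest difference on the higher side was that of Cxcl1, a chemokine that attracts neutrophils. It had 312.6 and 62.7 in wild-type liver and 89.6 and 246.5 in HSL-null liver, so it was 3.49-fold lower than wild type on ND and 3.93-fold higher on FD, a difference of 3.78 or 13.7-fold. Another probe set gave 3.80. Cxcl1 was 1 of 8 genes (0.166%) whose HSL-null signal was 2-fold below wild type on ND and 2-fold above it on FD, and no gene (0%) went the other way. Il1b, the gene of the cytokine interleukin-1 beta, had 53.2 and 20.0 in wild-type liver and 26.1 and 55.3 in HSL-null liver (2.49). Itgb2, the beta chain shared by leukocyte integrins, had 118.3, 24.7, 45.5 and 49.6 (2.38), and Ptpn22, a phosphatase that restrains lymphocyte receptor signalling, 61.4, 19.5, 24.1 and 48.4 (2.66). Cytip, a regulator of leukocyte adhesion, had 127.2, 42.1, 53.2 and 87.1 (2.31), and its other probe set, under the filter, 2.81. In all 5, wild type was highest or nearly so on ND and lowest on FD. The remaining 3 were Igh-VS107, an immunoglobulin heavy chain variable gene (37.3, 8.8, 18.6 and 45.4, 3.37), Krtap3-1, a keratin-associated protein gene (73.2, 27.1, 22.5 and 54.5, 2.71), and Chrne, a subunit of the muscle acetylcholine receptor (55.8, 35.1, 26.0 and 84.1, 2.36). Chrne did not cross at another probe set, under the filter with a mean of 18.4. There HSL-null over wild type was -1.53 on ND and -1.05 on FD (log2), a difference of 0.48. Cxcl1 and Ptpn22 stayed in the group of opposite genes under all 3 scalings, and Muc1 then entered it in the other direction. With a pseudocount of 16 in place of the floor, Cxcl1 alone was left.

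The Cxcl1 promoter is shown because this gene had the largest difference on the higher side. It lies at chr5:90890995-90891294 on the plus strand of GRCm38.p6, from RefSeq, over the same 300 bases around the start. Capitals mark GGG, any 2 bases and then TTTCC, on either strand, letters of the kind bound by NF-kappa-B. They were found at 2 places here and in 1.62% of all 27025 promoters. Of the 14 cholesterol synthesis promoters 1 held them too, that of Mvd, whose difference was -3.05.
Cxcl1: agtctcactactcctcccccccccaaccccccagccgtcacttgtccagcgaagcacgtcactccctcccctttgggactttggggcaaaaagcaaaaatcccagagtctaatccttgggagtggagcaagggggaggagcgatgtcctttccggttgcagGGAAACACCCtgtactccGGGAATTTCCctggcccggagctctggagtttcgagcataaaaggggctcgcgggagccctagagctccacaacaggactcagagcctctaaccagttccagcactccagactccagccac
The match describes the letters alone.

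Lists of macrophage, neutrophil and lymphocyte markers had medians above 0. Of 27 measured Kupffer cell and macrophage markers, 5 (18.5%, against 4.93% of all genes) were higher by 2-fold, 23 lay above 0, and the median was 0.43. Their summed signal was 6728 and 4612 in wild type on ND and FD and 5956 and 5701 in HSL-null liver, so the wild-type FD array was the low one. The 5 were Il1b, Itgb2, Itgax (78.3, 30.7, 37.7 and 46.3, 1.65), Laptm5 (1.26, but 0.58 at another probe set) and Mpeg1 (1.002). Among other members, Clec4f had 0.43, Adgre1, the F4/80 gene, 0.15 and Cd5l 0.32, while Marco, a scavenger receptor under the filter, had 3.47. Under median scaling 3 of the 27 were higher by 2-fold. Neutrophil markers were mostly under the filter: 4 of 22 listed genes were measured, among them Cxcl1 and Lcn2, which other cells express too, and 4 of 4 were above 0. The neutrophil granule genes Elane and Ltf had signals of at most 28.1 and 19.8.

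The lymphocyte and antigen-presenting list split. Of 21 measured members, 9 (42.9%, against 4.93% of all genes) were higher by 2-fold and none lower, and the median was 0.44. Under each scaling 7 were higher, with 1 lower under quantile normalization and 2 under median scaling. Under the stricter filter, which kept 9 members, the median was -0.31. Ptprc, the CD45 gene of all leukocytes, had 47.8 and 13.7 in wild-type liver and 24.4 and 36.6 in HSL-null liver (2.39, with 1.91 at another probe set). Cd72, a surface protein that restrains the B cell receptor, had 84.8, 19.9, 31.2 and 39.2 (2.42), and Cd79b, a signalling chain of that receptor, 38.3, 20.6, 19.8 and 31.2 (1.55). Genes of antigen presentation by class II molecules did not follow: H2-Aa had 262.9, 353.7, 303.8 and 204.6 (-0.998), H2-Ab1 -0.84 and Cd74 -0.52. The T cell genes Cd3d, Cd3e, Cd3g and Cd8a were under the filter, with signals of at most 15.6.

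Immunoglobulin genes, a list made after values were seen, were higher on the HSL-null FD array and lower on the wild-type FD array. Of 16 measured, 8 were higher by 2-fold and 14 above 0, with a median of 1.08. Their signals summed to 1094 and 623 in wild type on ND and FD and to 944 and 1598 in HSL-null liver. FD to ND was above 0 for 2 of 16 in wild type and for 15 of 16 in HSL-null liver. Ighm, the heavy chain of IgM, had 225.5, 128.0, 156.5 and 341.0 (1.94, with 1.23 and 0.74 at other kept probe sets), Jchain, which joins IgM and IgA units, 48.4, 15.4, 46.8 and 93.4 (2.65), and the light chain variable gene Igkv6-23 325.4, 111.7, 250.6 and 529.2 (2.62). Igha, the IgA heavy chain, went the other way at -0.73. Variable genes resemble each other, and 9 of the 16 lack a value without suffix probe sets. Some of the suffixes, though not all, mark probes shared with other sequences. Values of these genes are uncertain for that reason. The median signal of the list was 36.3, within the dimmest bin, where 12.9% of all genes were higher.

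Immediate early genes, which cells switch on within minutes of a stimulus, were higher as a group. Of 21 measured, 8 (38.1%, against 4.93% of all genes) were higher by 2-fold, none was lower by 2-fold and 19 lay above 0. The median was 0.79 and ranged from 0.49 to 0.85 over the alternatives. Most were lower on FD than on ND in wild type, with 4 of 21 above 0, and higher in HSL-null liver, with 16 of 21 above 0. Egr1, a zinc finger transcription factor, had 94.5 and 45.8 in wild-type liver and 68.7 and 205.0 in HSL-null liver, a difference of 2.62. Jun and Fos, which pair as AP-1, had 30.9, 30.3, 27.3 and 76.8 (1.52) and 38.6, 51.6, 29.7 and 104.2 (1.39). For Egr1, Jun and Fos the array apart was HSL-null FD, on the high side, unlike most of the 238. Ier2 (1.33), Btg2, an antiproliferative gene (1.40), and the growth arrest genes Gadd45a (1.32), Gadd45b (1.53) and Gadd45g (1.27) made up the 8. Per1, also a clock gene, was the lowest at -0.94, with a signal of 7.3 in HSL-null FD, and 1 gene was lower by 2-fold under each of the 3 scalings.

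Acute phase genes, which hepatocytes secrete in inflammation, lay above 0 for 25 of 31, against 58.3% of all genes. Of the 31, 3 (9.68%, against 4.93% of all genes) were higher by 2-fold. The median was 0.36, with a lowest value of 0.060 under median scaling. Saa2, serum amyloid A2, had 2456 and 785.7 in wild-type liver and 2388 and 3552 in HSL-null liver, a difference of 2.22 or 4.65-fold, and 3.71 at another probe set. The genotypes were equal on ND within 1.03-fold, and the wild-type FD pool was low. Lcn2, lipocalin 2, had 489.4, 257.0, 468.5 and 690.4 (1.49, but 0.27 at a dim other probe set), and Orm2 503.7, 306.1, 484.5 and 654.3 (1.15). Stat3, the factor through which interleukin-6 acts, had 175.3, 105.5, 157.9 and 183.8 (0.95). Hamp, the iron hormone hepcidin, had -0.48. Interferon response genes had a median of -0.02 over 26, and Cxcl9, an interferon-gamma induced chemokine, was lower at -1.60 (100.6, 153.6, 155.4 and 78.4).

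**Figure D4:**
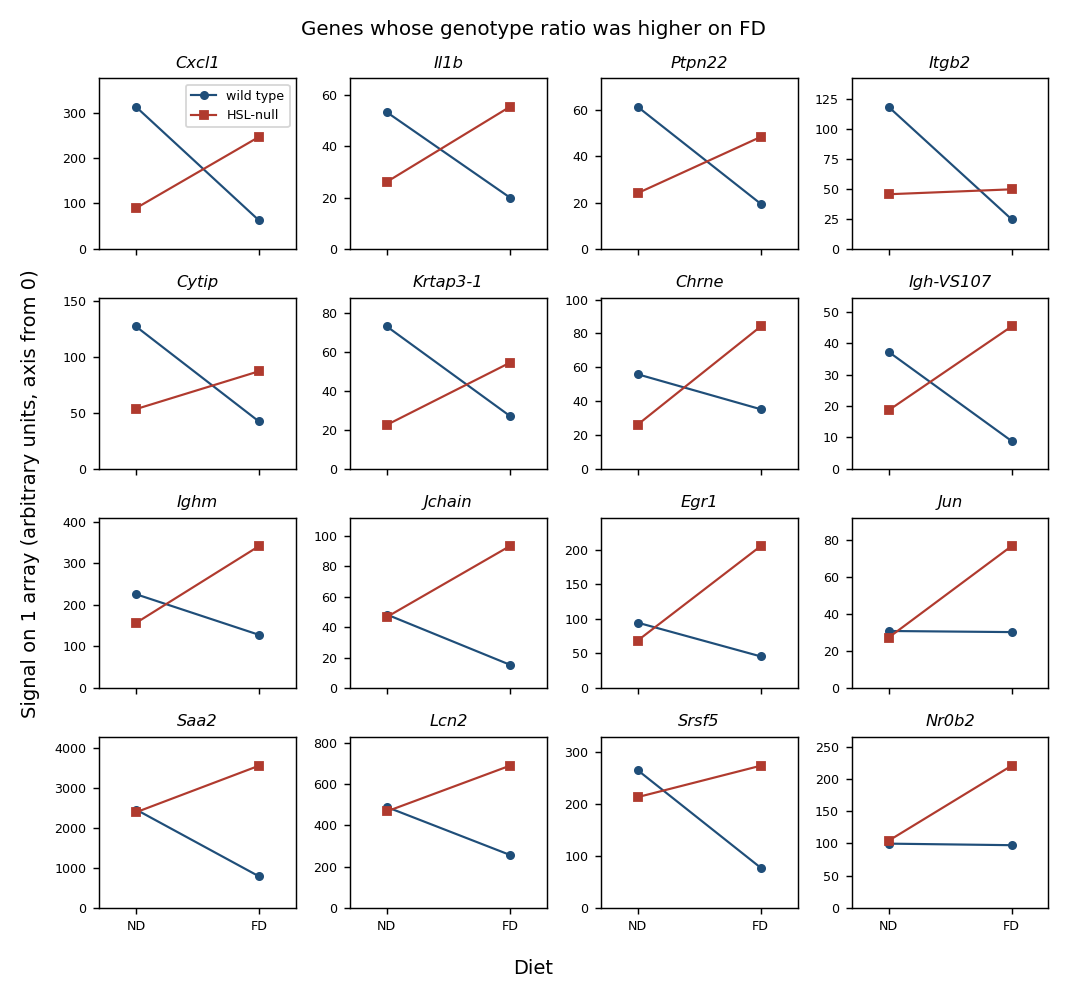
Signals (arbitrary units, each axis from 0) of 16 genes on ND and FD, with wild type in blue and HSL-null in red, 1 array a point. The lines cross in the top 8 genes, where HSL-null lay 2-fold below wild type on ND and 2-fold above it on FD; in Jun and Nr0b2 the wild-type points are level and the HSL-null FD point is high, and in Saa2 and Lcn2 the ND points coincide.

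Markers of stellate cells and matrix were above 0 for 24 of 29, with a median of 0.50. Of the 29, 5 (17.2%, against 4.93% of all genes) were higher by 2-fold. That count depends on the processing: 2 were higher under quantile normalization, 1 under cyclic loess, 1 with a pseudocount and none under median scaling, where 1 was lower, and the medians under these scalings were 0.31, 0.29 and 0.20. Bgn, the proteoglycan biglycan, had 598.1, 296.6, 437.9 and 529.3 (1.29, but 0.25 at another probe set), and Pdgfra, a growth factor receptor of mesenchymal cells, 58.4, 25.5, 61.7 and 62.4 (1.21). Col3a1 and Col1a1, fibrillar collagens, had 46.5, 35.8, 37.3 and 60.8 (1.08) and 36.8, 35.8, 26.3 and 50.8 (0.99). Timp2, an inhibitor of matrix proteases, had 1.11 and Reln 1.04. Dcn, the brightest marker, had 0.22 and Sparc -0.78. The 15 endothelial markers had a median of -0.05 and none reached 2-fold, against 4.93% of all genes higher and 1.39% lower.

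Splicing factors of the SR and hnRNP families, listed after values were seen, were above 0 in 21 of 22, with a median of 0.61. Of the 22, 6 (27.3%, against 4.93% of all genes) were higher by 2-fold. Srsf5 had 264.3 and 76.9 in wild-type liver and 212.6 and 272.9 in HSL-null liver, a difference of 2.14. Hnrnpul2 had 93.1, 37.2, 43.3 and 52.1 (1.59, with 1.41 at another probe set) and Hnrnpm 201.8, 90.7, 113.9 and 137.3 (1.42). In wild type 21 of 22 were lower on FD than on ND, and in HSL-null liver 18 of 22 were higher. Under median scaling and with a pseudocount 3 of the 22 were higher by 2-fold. Their median signal was 110, in the middle bin, where the median of all genes was 0.12, and members such as Srsf1 (39.1, 33.6, 35.2 and 45.2, 0.58) lay in the dimmest bin.

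Digestive enzymes are made by the exocrine pancreas, a tissue that lies beside the liver. Of its 11 measured markers, 6 (54.5%, against 4.93% of all genes) were higher by 2-fold. The median was 1.18, or 0.16 under the stricter filter. Ctrb1, chymotrypsinogen, had 286.3 and 74.1 in wild-type liver and 67.9 and 49.8 in HSL-null liver (1.503), Clps, colipase, 118.8, 42.6, 38.2 and 43.2 (1.66), and Reg1, a secreted acinar protein, 58.8, 22.2, 15.2 and 27.0 (2.23). In these 3 the wild-type ND array stood high. Prss2, trypsinogen, had 135.9, 4.6, 15.2 and 1.9, with both FD signals under the floor, so its ratio on FD was not measured although it counts among the 238. Cela1 (158.5, 99.9, 116.4 and 184.1, 1.33) was highest on HSL-null FD instead. Cel, carboxyl ester lipase, which is also on the list of lipid hydrolases, had 139.4, 70.5, 50.2 and 57.7 (1.18). The summed signal of the 11 was 2082, 1659, 1661 and 1509, and Amy1, an amylase gene that liver expresses too, had the largest share of it.

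Several metabolic and stress lists had medians near 0 that changed sign under median scaling. The clock genes had 0.26 over 17, with Arntl (34.5, 16.1, 49.3 and 50.4, 1.13) and Clock (1.03), the activators, higher and the outputs Usp2 (104.1, 189.1, 31.1 and 25.4, -1.15) lower by 2-fold and Dbp at -0.74; Arntl and Clock came under 2-fold in 5 of 8 alternatives each. Endoplasmic reticulum stress genes had 0.25 over 22, with Asns, asparagine synthetase, at 145.8, 69.6, 95.6 and 137.2 (1.59), Dnajb9 at 1.06, but -0.32 at another probe set, and the chaperone gene Hspa5 at -0.38. Bile acid genes had 0.04 over 15. Within them Nr0b2, the repressor SHP that bile acids induce through the receptor FXR, had 99.5, 97.1, 104.0 and 220.4 (1.12), with HSL-null FD alone high, Nr1h4, FXR itself, had 0.52 and Cyp7a1, the rate-limiting enzyme, 0.55. In the insulin and IGF list, at 0.10 over 22, Lepr, the leptin receptor, had 156.4 and 7.5 in wild-type liver and 92.3 and 17.0 in HSL-null liver. It was far lower on FD in both genotypes, and its difference of 1.94 rests on the 2 low FD signals. Igf1r, a growth factor receptor, had 1.13, and Igfbp1, higher in both HSL-null pools, 0.71. Igf1r came under 2-fold with each scaling. Glucose metabolism genes had 0.03 over 26, with Pck2, a mitochondrial carboxykinase, at 1.17 and under 2-fold with each scaling, urea cycle and amino acid genes 0.009 over 33 and hepatocyte markers 0.17 over 27. Cell cycle genes had 0.21 over 20, with Mcm4, a subunit of the replicative helicase, at 1.49, red blood cell markers 0.18 over 8 and adipocyte markers 0.16 over 6.

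Lists that lay below 0 under all 3 scalings without many called genes were cytosolic heat shock (median -0.21 over 17, with Hspa1a at -1.31), proteasome (-0.13 over 38) apolipoproteins (-0.04 over 19), cytosolic ribosomal proteins (-0.06 over 24) and bile duct markers (-0.25 over 7). Fatty acid oxidation genes and other PPARA targets had -0.06 over 29, between -0.36 and 0.012 over the alternatives, and Acot1, an acyl-CoA thioesterase, was the 1 gene lower by 2-fold (112.0, 228.8, 101.6 and 101.3). Lipid droplet and neutral lipid hydrolase genes, the family closest in function to the missing enzyme, had -0.10 over 13. Lipa, the lysosomal acid lipase, had 179.9, 257.6, 241.5 and 191.0 (-0.86), while Pnpla2, the adipose triglyceride lipase gene, had 254.9, 238.1, 224.4 and 225.3 (0.10) and Plin2, a droplet coat protein, 1896, 1687, 1908 and 1858 (0.13). These 2 genes differed little among the 4 arrays.

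**Figure D5:**
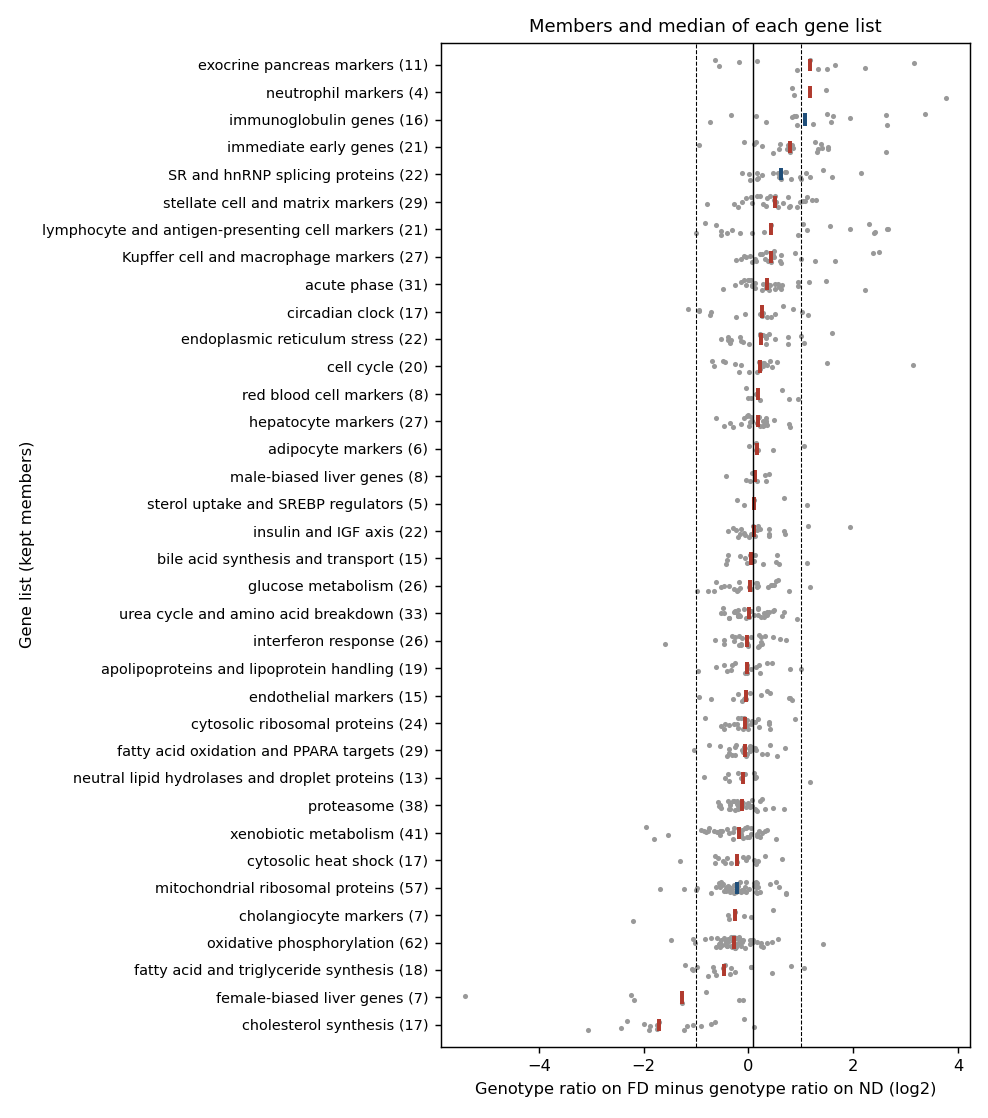
The genotype-by-diet difference (log2) of each measured member (grey points) and the median (bar) of 36 gene lists, ordered by median, with the number of measured members in brackets, the solid line at the median of all 4829 genes and dashed lines at 2-fold. Red bars are lists set at the start and blue bars the 3 lists made after values were seen; cholesterol synthesis and female-biased genes lie farthest left, and pancreas, neutrophil and immunoglobulin genes farthest right.

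Genes with large differences also lay outside these groups or apart from the rest of their list. Slc48a1, a heme transporter of lysosomes, had 66.4 and 89.4 in wild-type liver and 74.8 and 15.5 in HSL-null liver (-2.70), with HSL-null FD alone low. Muc1, a mucin on the list of bile duct markers, had 12.2, 50.9, 28.8 and 26.2 (-2.20), and Prkag1, a subunit of the energy sensor AMPK, 27.7, 47.3, 41.5 and 18.8 (-1.91). Gm7775, a predicted gene, had 13.9, 49.7, 29.4 and 28.6 (-1.88), and came to -0.94 with the floor at the median. Among higher genes, Nsf, a vesicle fusion ATPase, had 39.9, 47.7, 7.2 and 45.2 (2.39), the 1 gene of the 15 highest in which HSL-null ND was the array apart. Plk1, a mitotic kinase on the cell cycle list, had 40.0, 11.4, 29.3 and 73.3 (3.13), but -0.03 at another probe set, and other mitotic genes such as Ccnb2 (-0.25) and Cdc20 (-0.44) did not follow. Pcp2 (2.68), Ccdc186 (2.73) and T2 (3.65, signals 33.5, 8.4, 16.8 and 52.8) were dim, with signals under 100 on every array.

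Other probe sets of the same genes gave smaller differences on the higher side. Of the 238 genes, 29 had another kept probe set, which lay on the same side of 0 for 23 and reached 2-fold the same way for 9, with a median of 0.58 against 1.33 at the brightest. For 1 gene, Prss32, it was 2-fold the other way, at -1.43 against 1.59. Of the 67, 9 had another kept probe set, on the same side for 9 of 9 and past 2-fold for 7, with medians of -1.09 and -1.54. Over all 687 genes, 61.0% of these probe sets lay above 0, 5.68% were 2-fold higher and 1.89% 2-fold lower. Just inside the 2-fold limit lay Adam10 (1.001), Mpeg1 (1.002) and Uhmk1 (1.003) on the higher side and Dnajc15 (-1.01), Ndufb8 (-1.02) and Acot1 (-1.03) on the lower. Just outside lay Apbb1ip (0.998), Stk10 (0.997), Rbms1 (0.996), Mrps12 (-0.999), H2-Aa (-0.998) and Park7 (-0.988).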

How the data were processed

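Liver RNA of 4 pools was hybridised to 4 Affymetrix MG_U74Av2 arrays, 1 per group, from 4.8 µg of total RNA. The authors deposited a linear intensity for every probe set of each array, made with MAS5 per the submitters' processing notes, in a release not given in the sources used here. Trimmed means (2%) of 100.085 to 100.094 show a common scaling. Other deposited files hold run settings in words and numbers, not expression. Genes were named from the platform annotation, checked against RefSeq (GRCm38.p6), where 10817 of 10833 probe sets were found; 396 probe sets with several genes and 1193 with none were not named.

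Signals were raised to a floor of 6.1, the 25th percentile of values outside controls, and taken to log2. Probe sets with a mean signal of at least 26.9, the median of such means, were kept, and the brightest stood for its gene. Genes counted at a 2-fold log2 difference of 1. No test was made and no p-value computed, for want of replicates; the number of arrays limits the precision. Gene lists and all choices were made with earlier results of these data known, and 3 lists were added after values were seen. The genes to be named were Lipe, the 15 largest differences on each side, genes at the floor, the 8 opposite genes, up to 4 members of each list with the largest difference, all cholesterol synthesis genes and the 3 genes on each side of the limit; list members picked so that did not reach 2-fold are named in part, and other genes were chosen after their values were seen. Scripts used python 3.11.15, pandas 2.3.3, statsmodels 0.14.6 and matplotlib 3.10.9, and the counting was tested on simulated data. Alternatives were quantile normalization, median scaling, cyclic loess, a floor at the median, a pseudocount of 16, no filter, a stricter filter at the 75th percentile, averaging over a gene's probe sets, no suffix probe sets, no marker genes of other cell types and a 4-fold limit.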

Additional observations from a re-analysis of the deposited data

Results flagged for a closer look

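The genotype ratio lay on opposite sides on the 2 diets, by 2-fold or more each, for 8 genes, and this opposition drew attention to them. With 1 array a group the difference between diets was not tested for any of them. The genotype-by-diet difference was 3.778 for Cxcl1, 3.371 for Igh-VS107, 2.71 for Krtap3-1, 2.661 for Ptpn22, 2.495 for Il1b, 2.384 for Itgb2, 2.362 for Chrne and 2.306 for Cytip. The lowest array of the 4 was wild type FD for Cxcl1, Igh-VS107, Il1b, Ptpn22, Itgb2 and Cytip, and HSL-null ND for Krtap3-1 and Chrne. At another Chrne probe set, under the filter, HSL-null was lower than wild type on both diets.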

How the results depend on the processing

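Of 324 medians of the 36 gene lists under the alternatives, 7 moved by more than 0.43, the SD from other probe sets, and medians near 0 changed sign as given above. In all, 50 of 84 named genes past 2-fold stayed past it in every alternative that gave a value. The main counts were 238 higher, 67 lower and 8 opposite genes. Quantile normalization gave 149, 117 and 3, median scaling 114, 211 and 3, and cyclic loess 156, 108 and 3. A pseudocount gave 112, 44 and 1, no filter 646, 238 and 41, and the stricter filter 52, 34 and 1. Opposite genes numbered 4 with the floor at the median, 5 without suffix probe sets and 3 without marker genes. A 4-fold limit gave 29 and 8. The red blood cell median, 0.18, was 0.63 with no filter and 0.63 without suffix probe sets, and under the stricter filter the lymphocyte median was -0.31, the exocrine pancreas median 0.16 and the endothelial median -0.54. The immunoglobulin median, 1.08, was 0.62 under median scaling and 2.28 under the stricter filter, which kept 2 members. Filters and the 4-fold limit change which genes can count; for the other alternatives the cause was not tested. No paired analysis was possible because each group has 1 array, so that the groups share only the number 1, and no array could be left out for the same reason. Pooling hides variation between animals, and signals near the floor limit the dim genes.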

Other observations

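Some genes under the filter on mean signal had large differences and are given as values chosen after they were seen. Marco, a scavenger receptor of macrophages, had signals of 40.3, 7.7, 14.1 and 29.9 in wild type ND, wild type FD, HSL-null ND and HSL-null FD, a genotype-by-diet difference of 3.47. Camp, an antimicrobial peptide of neutrophils, had 20.9, 16.4, 7.3 and 36.2 (2.66), and Ltf, lactoferrin, 18.7, 7.2, 9.9 and 19.8 (2.38). Nr4a1, an immediate early nuclear receptor, had 29.5, 15.9, 19.8 and 39.1 (1.87), and Cd79a, the partner of Cd79b, 25.7, 18.9, 21.7 and 41.2 (1.37). All 5 were lower on FD than on ND in wild type and higher on FD in HSL-null liver, but they were picked for large differences. Other dim members of the same lists ran the other way. Among them were Ccl3, on the macrophage list (-1.39), and Cd22, on the lymphocyte list, with 2 signals under the floor (-1.15). Cfb, a complement factor on the acute phase list, also ran the other way with 10.5, 17.4, 19.7 and 10.3 (-1.66). Zg16, a pancreatic secretory granule gene, had 34.1 in wild type on ND and signals under the floor of 6.1 on the other 3 arrays, so its ratio on FD was not measured.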
